A study of Mus musculus with 2 samples.

Results

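The 9 genes described here belong to the N6-methyladenosine (m6A) system and were followed in this single-cell RNA sequencing dataset of mouse testis. They were chosen by symbol among the 50686 genes of the count matrix and comprise the writer subunits Mettl3, Mettl14 and Wtap, the readers Ythdc1, Ythdc2 and Ythdf2, the YTHDC2 partner Meioc, and the erasers Alkbh5 and Fto. All 9 symbols were found, and all 9 genes passed the filter on low counts. Between 147 UMIs (Mettl14) and 3064 UMIs (Meioc) were counted per gene over all cells.

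In m6A, a methyl group sits on an adenosine of an RNA. A nuclear complex built around METTL3 and METTL14, with WTAP as adaptor, deposits the mark, proteins with a YTH domain bind it, and the demethylases ALKBH5 and FTO can remove it. Male germ cells depend on several of these proteins, and YTHDC2 together with MEIOC is known to be needed when cells pass from mitosis into meiosis.

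Testis cells came from a pair of wild-type C57Bl/6J Crl littermates at 8 weeks of age, with 1 droplet library per mouse and no treatment. Both animals belong to 1 condition, so the comparisons run between cell groups and the mice serve as the n = 2 replicates. The matrix held 1237 cells of mouse 1 and 1315 cells of mouse 2, with 27450497 and 30302332 UMIs, and the cells had between 7114 and 154431 UMIs each. No barcode was shared between the mice. The 40 µm strainer used for the suspension was meant to keep somatic cells low, and the dataset holds few of them.

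K-means clustering without the 9 genes and without the other m6A genes described here gave 6 germ cell groups with at least 20 cells in each mouse. Early spermatocyte-like cells (52 in mouse 1 and 111 in mouse 2) had 9 of 12 early spermatocyte markers raised, and a group of 311 and 219 cells had 7 of 14 pachytene or later spermatocyte markers raised and is called later spermatocyte-like. A group of 318 and 387 cells led by Ssxb1 had only 1 of 12 round spermatid markers raised and at most 2 of any other germ cell class, and stays unnamed. It had 4 of 8 immune markers raised, at a sum of 4.74 CPM. Ssxb1 is itself on the round spermatid list. The mean log2 ratio of that list to the whole dataset was 0.44 in this group, and every other class was below 0. The list summed to 3336 CPM in mouse 1 and 3512 CPM in mouse 2 there, against 2534 and 2880 CPM over all cells. Round spermatid-like cells (180 and 254) had 8 of 12 markers raised. Elongating or condensing spermatid-like cells fell into a group led by Hemgn (94 and 117) with 11 of 12 markers raised, beside 7 of 12 round spermatid markers, and a group led by Prm1 (272 and 218) with 12 of 12. Levels are CPM, the UMIs of a gene in 1000000 UMIs of the group in that mouse, and intervals on CPM and shares are exact 95% intervals that cover counting error only.

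The stretch before the RefSeq start site is shown for the eraser genes, whose levels ran in opposite directions, and for Meioc, the gene with the most UMIs (build GRCm38.p6, 250 bases each, read 5′ to 3′ on the + strand). Of 4 motifs searched on either strand, capitals mark the CCAAT box, the GC box (GGGCGG) and the cAMP response half-site (TGACG), and the short letters AACNG of a MYB site are left unmarked. Fto lies on chromosome 8 (chr8:91313525-91668439) and its stretch is chr8:91313275-91313524. Alkbh5 lies on chromosome 11 (chr11:60536381-60558512) and its stretch is chr11:60537433-60537682. Meioc also lies on chromosome 11 (chr11:102663716-102682237) and its stretch is chr11:102665335-102665584. The GENCODE genes Alkbh5 and Meioc begin upstream of these RefSeq starts.
Fto: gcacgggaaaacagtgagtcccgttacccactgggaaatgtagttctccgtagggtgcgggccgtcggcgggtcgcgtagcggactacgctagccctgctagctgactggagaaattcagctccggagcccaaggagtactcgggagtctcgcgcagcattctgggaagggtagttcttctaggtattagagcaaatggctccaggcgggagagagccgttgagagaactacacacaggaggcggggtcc
Alkbh5: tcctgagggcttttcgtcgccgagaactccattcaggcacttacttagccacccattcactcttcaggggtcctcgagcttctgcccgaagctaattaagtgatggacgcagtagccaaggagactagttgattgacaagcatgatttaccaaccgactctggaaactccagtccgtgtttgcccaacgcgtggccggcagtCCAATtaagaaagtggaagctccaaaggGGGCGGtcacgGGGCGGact
Meioc: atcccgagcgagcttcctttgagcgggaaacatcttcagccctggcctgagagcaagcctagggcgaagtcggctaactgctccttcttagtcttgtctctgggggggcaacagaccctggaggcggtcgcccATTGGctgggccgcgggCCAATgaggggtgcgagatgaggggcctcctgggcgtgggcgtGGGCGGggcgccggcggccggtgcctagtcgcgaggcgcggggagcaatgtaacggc

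The Fto stretch held none of the 3 marked motifs and 3 matches to AACNG. Alkbh5 had 1 CCAAT, 2 GGGCGG and 1 AACNG, and Meioc had 2 CCAAT, 1 GGGCGG and 3 AACNG. Of 32851 promoter stretches of the same 250 bases, 33.9% held CCAAT, 32.7% held GGGCGG, 17.8% held TGACG and 74.2% held AACNG, so presence or absence of these letters is common. A match is a description of the letters and was not tied to the levels.

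Among the 6 germ cell groups and in CPM, the 8 genes other than Fto were highest in early spermatocyte-like cells in both mice, and Fto was highest in the Hemgn-led spermatids in both mice. The 7 spermatogonium-like cells are not in this order. On 1 to 4 UMIs per gene and mouse, their Mettl3, Alkbh5 and Ythdc1 values were above those of early spermatocyte-like cells in both mice. How many of all genes had their highest CPM in early spermatocyte-like cells was not counted. In edgeR's quasi-likelihood test, which set each group against the mean over the remaining ones, 8 of 9 genes were higher and 1, Fto, was lower in early spermatocyte-like cells, where 37.4% of the 13853 genes tested were higher and 40.3% were lower. Their median log2 fold change there was 2.46, against -0.24 over all genes tested. Scaled by library totals, as CPM are, these medians were 3.24 and 0.52, and 6790 of the 13853 genes were higher there. The filter on low counts can keep a gene through the groups where it is high. Mettl14 had means of 12.1 and 4.90 CPM in the 2 spermatocyte-like groups and at most 0.80 CPM in the other tested groups. Without the filter, 8 of 9 genes were higher and 1 lower, as were 5703 and 5692 of 27014. The groups were built from the other genes of the same cells, and 97.4% of all genes differed over the 6 groups. The 9 of 9 m6A genes that did so are therefore near the background.

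**Figure D1:**
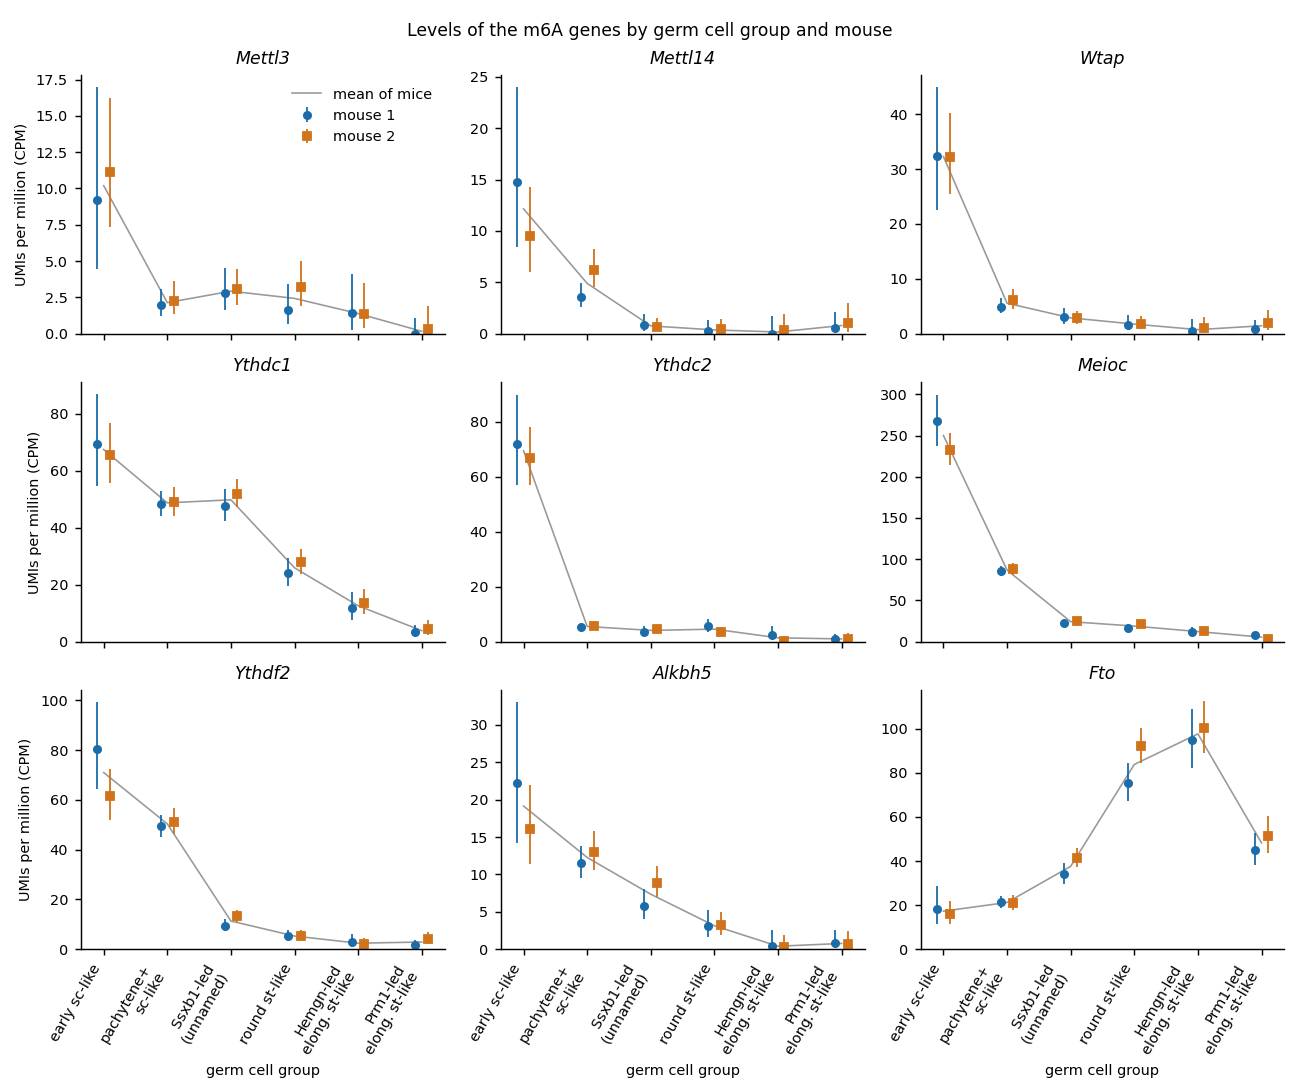
Level of each m6A gene in CPM (y axis, linear, from 0) in the 6 germ cell groups (x axis, sc for spermatocyte and st for spermatid), with mouse 1 as circles, mouse 2 as squares, exact 95% Poisson intervals as bars and the mean of the mice as a grey line. The 8 other genes start at their highest level in early spermatocyte-like cells, while Fto climbs from 18.5 and 16.1 CPM there to 95.1 and 100.3 CPM in the Hemgn-led spermatids.

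In the later groups the counts of higher and lower genes were different. Later spermatocyte-like cells had 5 of 9 genes higher and 1 lower, with 42.6% and 32.6% of all genes as background. The count higher is thus not far above its background. The Ssxb1-led cells had 2 higher (Ythdc1 and Alkbh5) and 2 lower (Meioc and Fto), against 36.4% and 22.4%. Their count lower is near the background. Round spermatid-like cells had 1 higher, Fto, and 4 lower, against 37.2% and 22.7%. In the Hemgn-led group 1 was higher, again Fto, and 7 were lower, against 38.3% and 26.4%. The Prm1-led group had 1 higher and 6 lower, against 30.9% and 30.1%. The median log2 fold change of the 9 genes went from 0.74 in later spermatocyte-like cells to -0.55, -0.26, -1.72 and -1.34 in the 4 groups after them, while that of all genes went from 0.16 to 0.14, 0.07, 0.04 and -0.25.

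**Figure D2:**
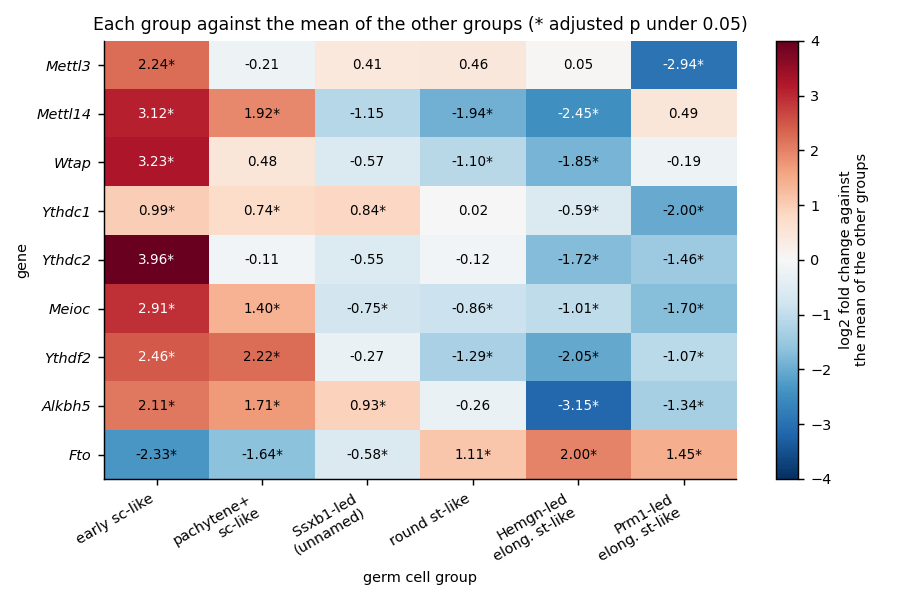
Log2 fold change of each gene (rows of the grid) in each germ cell group (columns) against the mean over the remaining groups, from red for higher to blue for lower, with an asterisk where the adjusted p of edgeR's quasi-likelihood test was under 0.05. The first column is positive for 8 genes and -2.33 for Fto, and the fields for Mettl3 in the Prm1-led group and for Mettl14 and Alkbh5 in the Hemgn-led group rest on 1, 1 and 2 UMIs.

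Among the writer genes, Mettl3, the catalytic subunit, was measured at 9.24 CPM in mouse 1 and 11.1 CPM in mouse 2 in early spermatocyte-like cells. In the 4 groups from later spermatocyte-like cells to the Hemgn-led spermatids it lay between 1.37 and 3.20 CPM. The Prm1-led group had no UMI in mouse 1, which allows up to 0.884 CPM, and 1 UMI in mouse 2. The early spermatocyte-like values of both mice lay above the values of the other 5 germ cell groups, though the interval in mouse 1 (4.43 to 16.99) overlaps that of the Ssxb1-led cells of the same mouse (1.64 to 4.51). Against the mean of the other 5 groups the log2 fold change was 2.24 ± 0.38 (SE; adjusted p = 1.38e-05). With edgeR's scaling by trimmed means (TMM), only the first of the 5 steps between neighbours in its order of levels passed the test. That step ran from early spermatocyte-like to Ssxb1-led cells (log2 1.52, adjusted p = 0.00109). Scaled by library totals, the last step, from Hemgn-led to Prm1-led cells, passed too (log2 2.95, adjusted p = 0.0410). Mettl3 (chr14:52294841-52305128) overlaps exons of Tox4 on the opposite strand, and whether strand was used in counting is not given in the sources used here. Tox4 had 97.9 CPM in early and 98.2 CPM in later spermatocyte-like cells, a step at which Mettl3 went from 10.6 to 2.12 CPM over both mice.

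Mettl14, the RNA-binding partner of METTL3, remained at several CPM for 1 group longer. It had 14.8 and 9.50 CPM in early spermatocyte-like cells of mouse 1 and mouse 2, then 3.62 and 6.17 CPM in later spermatocyte-like cells. Each later group had at most 1.01 CPM in either mouse. The gene was higher in both spermatocyte groups, by log2 3.12 ± 0.41 (SE; adjusted p = 3.75e-07) in the early and 1.92 ± 0.35 (SE; adjusted p = 3.73e-05) in the later one. Of the UMIs of Mettl14 and Mettl3 together, Mettl14 took 64.4% (50.9 to 76.4) in mouse 1 and 73.0% (60.3 to 83.4) in mouse 2 in later spermatocyte-like cells. In Ssxb1-led cells it took 22.7% (7.82 to 45.4) and 18.8% (7.21 to 36.4), so that the intervals did not overlap in either mouse. This shift in share was not tested beyond these intervals. Between these 2 groups Mettl14 was higher in later spermatocyte-like cells (log2 2.56, adjusted p = 2.36e-05), while Mettl3 did not pass (log2 -0.52, adjusted p = 0.228).

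Wtap, the adaptor of the writer complex, was at 32.3 CPM in mouse 1 and 32.2 CPM in mouse 2 in early spermatocyte-like cells. It was at 4.95 and 6.17 CPM in later spermatocyte-like cells and between 0.471 and 2.98 CPM in each later group and mouse. The early group was higher by log2 3.23 ± 0.24 (SE; adjusted p = 2.38e-11). The first 2 steps down in its order passed the test, with log2 2.29 (adjusted p = 1.08e-07) and 0.87 (adjusted p = 0.0131), and the 3 steps between the Ssxb1-led cells and the spermatids did not. A passing step is common in these data. Of all genes tested, 50.6% passed between early and later spermatocyte-like cells, 70.9% between early spermatocyte-like and Ssxb1-led cells and 63.8% between later spermatocyte-like and Ssxb1-led cells. The later spermatocyte-like cells differed in 76.6%, 78.3% and 76.0% of genes from the round spermatid-like, Hemgn-led and Prm1-led cells. The Ssxb1-led cells differed from these 3 spermatid groups in 47.2%, 63.3% and 66.4%. Within the spermatids the percentages were 45.6% between round spermatid-like and Hemgn-led cells, 57.6% between round spermatid-like and Prm1-led cells and 39.1% between the Hemgn-led and Prm1-led groups.

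Ythdc1, the nuclear m6A reader, which acts in splicing and export, declined mainly from the round spermatid-like cells on. Its levels in mouse 1 were 69.3, 48.4, 47.7, 24.1, 11.8 and 3.24 CPM from early spermatocyte-like to Prm1-led cells. In mouse 2 they were 65.7, 49.1, 52.0, 27.8, 13.4 and 4.40 CPM. The CPM of early spermatocyte-like cells lay above those of the 2 groups after them in both mice, with intervals in mouse 1 of 54.5 to 86.9, 44.3 to 52.8 and 42.3 to 53.5. Under TMM, edgeR's scaling by trimmed means, neither step between neighbours among these 3 groups passed (log2 0.12, adjusted p = 0.5095, and log2 0.08, adjusted p = 0.631). With library totals the first, from early spermatocyte-like to Ssxb1-led cells, passed (log2 0.43, adjusted p = 0.0155). The following 3 steps passed under TMM, with log2 0.60 (adjusted p = 0.00148), 0.51 (adjusted p = 0.0482) and 1.18 (adjusted p = 0.00284). The middle one, from round spermatid-like to Hemgn-led cells, did not pass with DESeq2 (log2 0.48, adjusted p = 0.0906). Its fold change in early spermatocyte-like cells, 0.99 ± 0.14 (SE; adjusted p = 1.14e-06), was the smallest of the 8 positive values there. Exons of Ythdc1 overlap Gm43055 on the same strand, which had 0 UMIs over all cells. Whether this overlap changed the counts of Ythdc1 was not tested.

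Ythdf2, the cytoplasmic reader that brings bound transcripts to decay, was far lower from the Ssxb1-led cells on. Early spermatocyte-like cells had 80.4 CPM in mouse 1 and 61.5 CPM in mouse 2, and later spermatocyte-like cells had 49.4 and 51.2 CPM. The Ssxb1-led cells had 9.43 and 13.3 CPM, and no group named as spermatids exceeded 5.39 CPM. Under TMM, the step between the spermatocyte groups did not pass (log2 0.20, adjusted p = 0.397), whereas the step to the Ssxb1-led cells did (log2 2.07, adjusted p = 2.41e-09). With library totals the former step passed (log2 0.46, adjusted p = 0.0466), and with UMIs per cell it did not (log2 -0.20, adjusted p = 0.477). Relative to Ythdc1, Ythdf2 took 50.5% (47.4 to 53.6) and 51.1% (47.4 to 54.7) of the UMIs of the pair in later spermatocyte-like cells of mouse 1 and mouse 2. Its share was 16.5% (12.8 to 20.9) and 20.3% (17.1 to 23.9) in Ssxb1-led cells. Since both genes are counted in the same cells, this shift in share does not depend on how the groups are scaled.

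Ythdc2, which joins a YTH domain to an RNA helicase, was high in 1 group and low in the other 5. It was at 72.1 CPM in mouse 1 and 66.9 CPM in mouse 2 in early spermatocyte-like cells and at 5.34 and 5.63 CPM in later spermatocyte-like cells. No later group exceeded 5.48 CPM. Its log2 fold change of 3.96 ± 0.21 (SE; adjusted p = 5.73e-14) in early spermatocyte-like cells was the largest of the 9 genes under this scaling. The step to later spermatocyte-like cells was log2 3.39 (adjusted p = 1.81e-10), and none of the other 4 steps in its order passed under TMM. Ssxb1-led over Hemgn-led cells passed with library totals (log2 1.75, adjusted p = 0.00717) and with UMIs per cell (log2 1.55, adjusted p = 0.0172). With UMIs per cell, later spermatocyte-like over round spermatid-like cells passed as well (log2 0.85, adjusted p = 0.0177).

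Meioc, the meiosis-specific partner of YTHDC2, was higher in early spermatocyte-like cells as well, but declined over more groups. Mouse 1 had 267 CPM (237 to 300) and mouse 2 had 233 CPM (214 to 253) there. Later spermatocyte-like cells had 85.6 and 87.9 CPM, Ssxb1-led cells 22.8 and 25.3 CPM, and the Prm1-led group 7.66 and 3.04 CPM. The mean over mice in the Prm1-led group was 5.35 ± 3.27 CPM (SD, n = 2). Meioc was higher in both spermatocyte groups, by log2 2.91 ± 0.13 (SE; adjusted p = 2.63e-15) and 1.40 ± 0.13 (SE; adjusted p = 7.125e-10). Its first 2 steps passed, with log2 1.25 (adjusted p = 7.80e-07) and 1.79 (adjusted p = 3.11e-09). Per UMI of Ythdc2 there were 3.71 and 3.48 UMIs of Meioc in early spermatocyte-like cells and 16.0 and 15.6 in later spermatocyte-like cells.

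The eraser Alkbh5 followed the writers and readers. Its levels were 22.2 CPM in mouse 1 and 16.1 CPM in mouse 2 in early spermatocyte-like cells, 11.5 and 13.0 CPM in later spermatocyte-like cells, 5.79 and 8.92 CPM in Ssxb1-led cells and 3.10 and 3.20 CPM in round spermatid-like cells. Each mouse had 1 UMI in the Hemgn-led group, and the Prm1-led group had 3 and 2 UMIs. It was higher in the first 3 groups, by log2 2.11 ± 0.29 (SE; adjusted p = 7.30e-07), 1.71 ± 0.24 (SE; adjusted p = 8.57e-07) and 0.93 ± 0.27 (SE; adjusted p = 0.00500). The lower value in the Prm1-led group (log2 -1.34 ± 0.58 SE; adjusted p = 0.0492) did not pass with the mouse as a block (log2 -1.32, adjusted p = 0.0649).

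Fto, the other m6A eraser, ran the other way. Mouse 1 had 18.5, 21.2, 33.9, 75.5, 95.1 and 45.1 CPM from early spermatocyte-like to Prm1-led cells. Mouse 2 had 16.1, 21.2, 41.3, 92.1, 100.3 and 51.4 CPM. In each mouse the level thus rose group by group up to the Hemgn-led spermatids and was lower in the Prm1-led ones. The gene was lower in early spermatocyte-like cells by log2 -2.33 ± 0.18 (SE; adjusted p = 6.28e-11) and higher in round spermatid-like cells by 1.11 ± 0.12 (SE; adjusted p = 1.41e-08) and in Hemgn-led spermatids by 1.996 ± 0.12 (SE; adjusted p = 3.60e-13). Of the 5 steps in its order 4 passed under TMM, and the exception was the step between round spermatid-like and Prm1-led cells, whose log2 difference of -0.29 (adjusted p = 0.129) has the opposite sign to the CPM. With UMIs per cell 3 of these 4 steps did not pass, and that from Prm1-led to Ssxb1-led cells turned from log2 1.70 (adjusted p = 3.13e-09) to -0.31 (adjusted p = 0.132). With library totals, Hemgn-led over round spermatid-like cells did not pass (log2 0.22, adjusted p = 0.204). Later over early spermatocyte-like cells did not pass with library totals (log2 0.32, adjusted p = 0.210) or with DESeq2 (log2 0.27, adjusted p = 0.410). Exons of Fto overlap Gm45427 and 4831440D22Rik on the opposite strand, which had 0 and 3 UMIs over all cells.

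Within the eraser pair, Fto went from a part like that of Alkbh5 to nearly all UMIs. Of the UMIs of Fto and Alkbh5, Fto took 45.5% (30.4 to 61.2) in mouse 1 and 50.0% (38.5 to 61.5) in mouse 2 in early spermatocyte-like cells. This became 64.8% and 62.0% in later spermatocyte-like cells and 85.4% and 82.2% in Ssxb1-led cells. It reached 96.1% and 96.6% in round spermatid-like cells and 99.5% (97.3 to 99.99) and 99.7% (98.1 to 99.99) in Hemgn-led spermatids. At each of these 4 steps the share was higher than before in both mice.

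**Figure D3:**
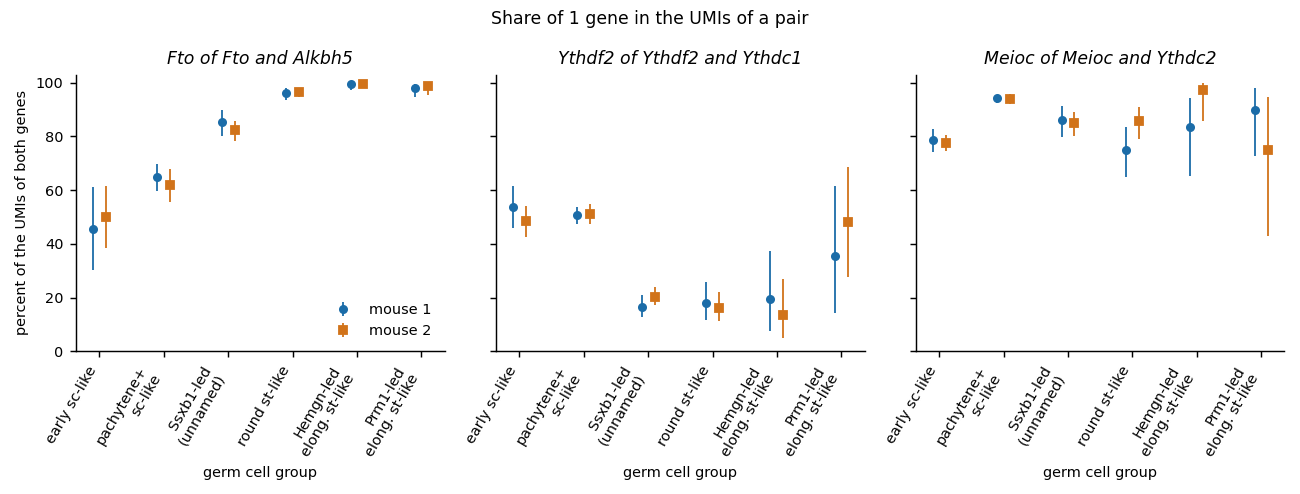
Percent of the UMIs of a pair that belong to the gene named first (y axis) in the 6 germ cell groups (x axis), with mouse 1 as circles, mouse 2 as squares and exact 95% binomial intervals as bars. The share of Fto climbs from 45.5% and 50.0% to above 99%, the share of Ythdf2 drops between later spermatocyte-like cells and Ssxb1-led cells, and the share of Meioc is 78.7% and 77.7% in early and 94.1% and 94.0% in later spermatocyte-like cells.

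To resolve these changes at finer steps, the germ cells were ordered by diffusion pseudotime without the m6A genes and divided into 20 bins of equal cell number. Only bins 1 to 11 are used, since beyond them the ordering placed Prm1-led cells before round spermatid-like cells, against their markers. Bin 1 held early spermatocyte-like cells alone, bins 2 to 5 mostly later spermatocyte-like cells and bins 6 to 11 mostly Ssxb1-led cells. Ythdc2 went from 81.9 CPM in mouse 1 and 91.6 CPM in mouse 2 in bin 1 to 10.6 and 16.5 CPM in bin 2. Meioc had 294 and 270.2 CPM in bin 1, 135 and 128 CPM in bin 2, 75.7 and 75.4 CPM in bin 5 and 26.0 and 24.6 CPM in bin 8. Its decline was spread over the ordering, while that of Ythdc2 lay mainly in the first step. Ythdf2 still had 46.1 and 50.5 CPM in bin 5 and had 12.5 and 14.8 CPM in bin 8. Fto stayed between 14.2 and 26.5 CPM up to bin 7 and had 73.4 and 55.6 CPM in bin 11. These values are descriptions without a test.

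**Figure D4:**
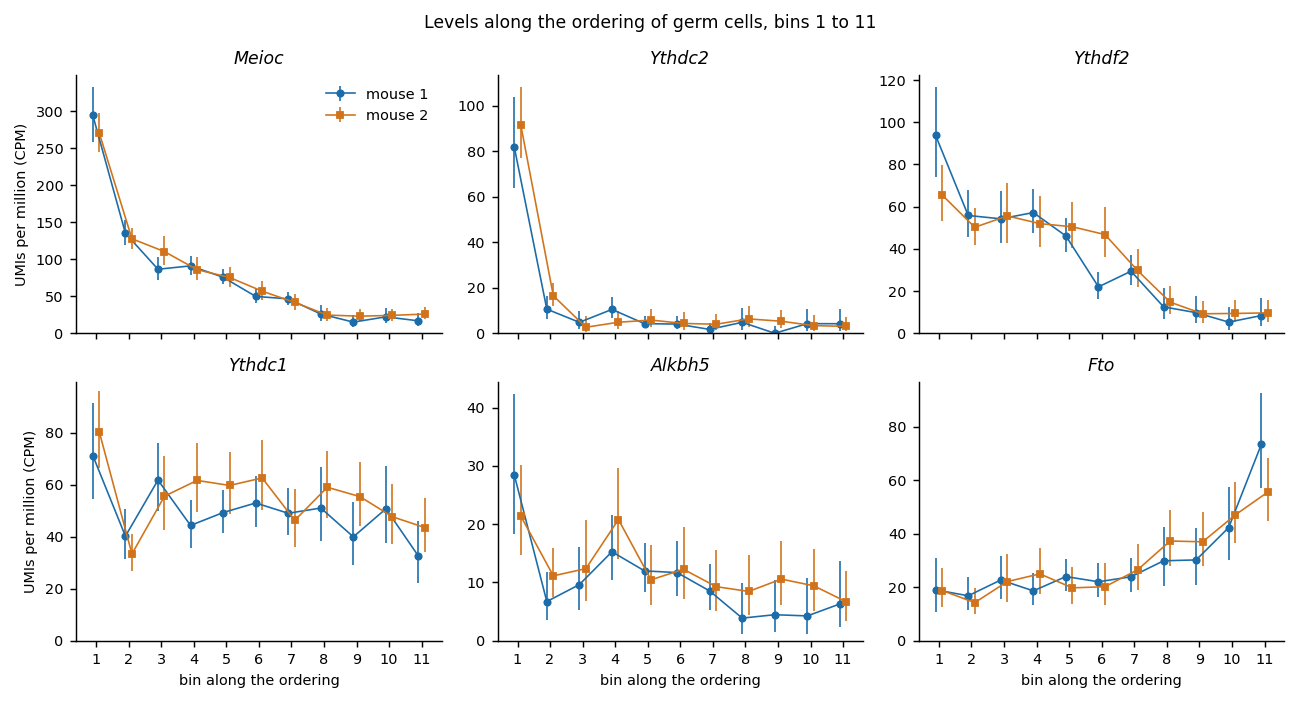
Level in CPM (y axis, from 0) of 6 m6A genes in bins 1 to 11 of the ordering (x axis), mouse 1 as circles and mouse 2 as squares, with exact 95% Poisson intervals as bars. Ythdc2 drops at the first step, Meioc and Ythdf2 decline over several bins, Ythdc1 stays above 30 CPM throughout, and Fto rises in the last bins to 73.4 and 55.6 CPM.

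How much RNA a cell holds differs between the groups, so the fold changes were also taken with library totals and with UMIs per cell in place of TMM. The median of all genes moved with the scaling, in early spermatocyte-like cells from -0.24 to 0.52 with library totals and 0.49 per cell, and in the Prm1-led group from -0.25 to -1.45 and -2.315. Among all calls in the Prm1-led group, 50.6% were higher under TMM, 25.1% with library totals and 15.7% per cell. The corresponding shares were 48.1%, 63.1% and 62.6% in early spermatocyte-like cells, 56.7%, 65.8% and 75.1% in later spermatocyte-like cells, and 61.9%, 77.9% and 74.9% in Ssxb1-led cells. They were 62.0%, 66.8% and 72.4% in round spermatid-like and 59.2%, 43.9% and 47.7% in Hemgn-led cells. The 8 positive calls and the negative call for Fto in early spermatocyte-like cells held under each of these 3 scalings, as did the positive calls for Fto in round spermatid-like and Hemgn-led cells.

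In the Prm1-led group the direction for Fto depends on the scaling. Its log2 fold change was 1.45 ± 0.13 (SE; adjusted p = 7.67e-10) under TMM, 0.24 (adjusted p = 0.0849) with library totals and -0.65 (adjusted p = 0.000656) per cell, each time above the median of all genes. Per 1000 cells Fto had 562.5 and 697 UMIs in the Prm1-led group of mouse 1 and mouse 2, against 2149 and 2496 in the Hemgn-led group. Among the tested germ cell groups, the Prm1-led cells were also the shallowest, with medians of 11164.5 and 12343 UMIs per cell. The few spermatogonium-like cells, which were not tested, had lower medians, 10239 in mouse 1 and 10465.5 in mouse 2. In UMIs per cell, 3 of the 8 genes had their highest mean in later and not in early spermatocyte-like cells. Ythdc1 had 1633 and 1671 UMIs per 1000 cells in the later group of mouse 1 and mouse 2, against 1442 and 1432 in the early one. Ythdf2 had 1669 and 1744 against 1673 and 1342, and Alkbh5 had 389 and 443 against 462 and 351, so that for these genes only mouse 2 was higher in the later group.

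**Figure D5:**
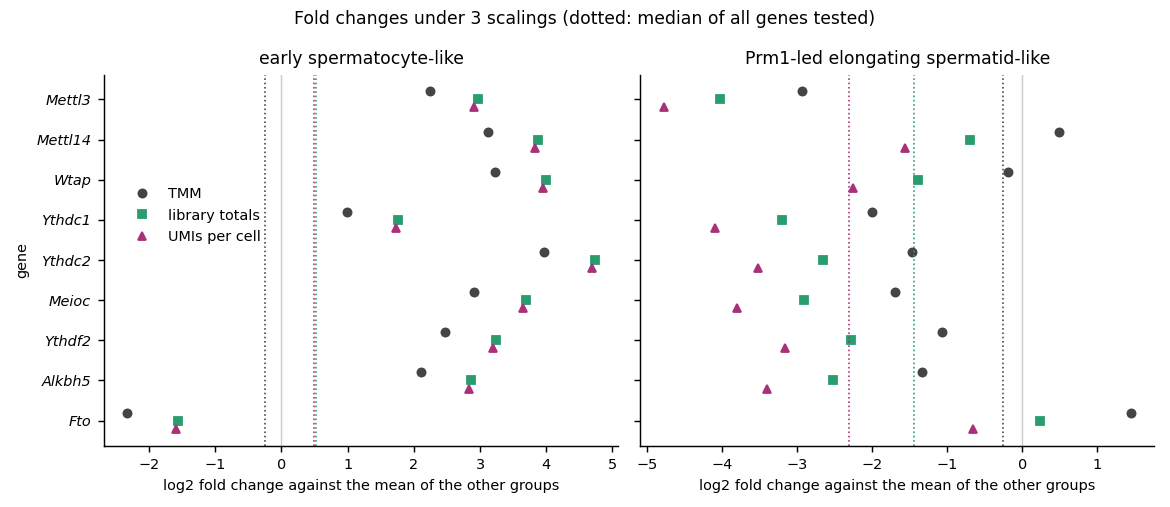
Log2 fold change against the mean over the remaining groups (x axis) for the 9 genes (y axis) in early spermatocyte-like cells and in the Prm1-led group, under TMM (circles), library totals (squares) and UMIs per cell (triangles), with the median of all genes tested as dotted lines in the same colours. In the left panel each gene keeps its side of 0, while in the right panel Fto goes from 1.45 to -0.65 and Mettl14 from 0.49, which was not called, to below 0.

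Of 23 further m6A pathway genes (other writer subunits and methyltransferases, other readers and partners of readers), 20 passed the filter on low counts. Among the tested germ cell groups, 17 of 23 had their highest mean level in early spermatocyte-like cells. The few spermatogonium-like, Sertoli-like and Leydig-like cells are not in this order. Some of the 17, such as Zc3h13 and Rbm46, had higher means in spermatogonium-like cells, and others, such as Cnot1 and Cbll1, had lower means there. The 17 include genes that did not pass the filter. How many of all genes were highest in early spermatocyte-like cells was not counted. In that group 16 of 20 were higher and 2 lower, where 37.4% and 40.3% of all genes were, with a median log2 fold change of 1.70 against -0.24. The filter can keep a gene through a single group where it is high. Ythdf1 had a mean of 9.78 CPM in early spermatocyte-like cells and at most 2.30 CPM in the other tested groups. Without the filter, 16 of 23 were higher and 2 lower, as were 5703 and 5692 of 27014 genes. With the filter, the counts were 12 and 3 in later spermatocyte-like cells (all genes 42.6% and 32.6%) and 11 and 4 in Ssxb1-led cells (36.4% and 22.4%). They were 4 and 9 for round spermatid-like cells (37.2% and 22.7%), 3 and 10 in the Hemgn-led (38.3% and 26.4%) and 2 and 15 in the Prm1-led group (30.9% and 30.1%). The share lower in Ssxb1-led cells is near the background. Hnrnpa2b1, an RNA-binding protein described as a nuclear reader, had 737 and 619 CPM in early spermatocyte-like cells of mouse 1 and mouse 2 and 109 and 115 CPM in pachytene or later ones. Its log2 fold change in the former was 3.05 ± 0.09 (SE; adjusted p = 5.13e-18). Rbm46, a germ cell RNA-binding protein that joins YTHDC2 and MEIOC, had 219.9 and 189.5 CPM in early spermatocyte-like cells and 104 and 81.8 CPM in pachytene or later ones.

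Cnot1, the scaffold of the deadenylase complex to which YTHDF2 brings its targets, had 141 and 160.2 CPM in early spermatocyte-like cells and 95.7 and 95.5 CPM in pachytene or later ones. Igf2bp3, a reader linked to transcript stability, had the most UMIs of the list (6386) and the opposite order. It had 60.1 and 74.3 CPM in early spermatocyte-like cells, 203 and 245 CPM in the Hemgn-led and 266 and 285 CPM in the Prm1-led group. Its log2 fold change was 2.79 ± 0.13 (SE; adjusted p = 5.84e-15) in the Prm1-led group, where only 2 of the 20 genes tested were higher.

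Across the 12 sums of mouse and germ cell group, the 8 genes other than Fto had Pearson correlations of log2(CPM + 10) between 0.653 (Mettl14 and Ythdc1) and 0.983 (Wtap and Ythdc2) with each other. Fto had correlations between -0.884 (with Ythdf2) and -0.585 (with Mettl3). The 12 points share cells, depth and 6 group means, so these values only describe the shape over groups. Among genes with at least 500 UMIs, the most similar profiles were those of Mia2 for Mettl3 (r = 0.991), Hmgb2 for Mettl14 (r = 0.986), Rnps1 for Wtap (r = 0.997), Acin1 for Ythdc1 (r = 0.995) and Gml for Ythdc2 (r = 0.995). For Meioc it was Gm14167 (r = 0.992), for Ythdf2 Dtd1 (r = 0.994), for Alkbh5 Tbc1d12 (r = 0.991) and for Fto Akap10 (r = 0.9897).

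Markers of other cell types were measured beside these levels. The 15 Sertoli markers summed to 213 CPM in mouse 1 and 69.0 CPM in mouse 2 in early spermatocyte-like cells, with 3 and 2 of them at 0, and to between 35.4 and 101 CPM in the other germ cell groups. In Sertoli-like cells they summed to 34440 and 39516 CPM. The 9 Leydig markers lay between 24.8 and 62.4 CPM and the 8 peritubular or endothelial markers between 0.924 and 9.77 CPM over the germ cell groups. The 8 immune markers summed to 0.924 and 2.06 CPM in early spermatocyte-like cells and to 34.5 and 43.3 CPM in the Prm1-led group. The 12 elongating or condensing spermatid markers summed to 8015 and 4991 CPM in early spermatocyte-like cells. The part of other cells or of free RNA in the levels of the m6A genes was not tested.

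At least 1 UMI of Meioc was found in 97.5% (93.8 to 99.3) of early spermatocyte-like cells and in 6.12% (4.17 to 8.63) of Prm1-led cells. For Fto the share was 29.4% (22.6 to 37.1) in early spermatocyte-like cells and 82.9% (77.2 to 87.8) in Hemgn-led cells. After thinning of each cell to 5000 UMIs, the Meioc shares were 66.9% and 3.47% and the Fto shares 8.59% and 40.8%, with the same order. Among the 12 Sertoli-like and Leydig-like cells, with medians of 11080 UMIs per cell in mouse 1 and 9856 in mouse 2, 1 cell had a UMI of Meioc and 1 cell had a UMI of Fto. These shares describe cells with a UMI and not cells expressing the gene.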

How the data were processed

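Per the paper's methods, the authors ran Cell Ranger 2.0.0 (with bcl2fastq 2.17.1.14) on the reads against repeat-masked GRCm38 with the annotation of an Ensembl release and added transposable element sequences, and combined the mice with downsampling of reads. The deposited values are whole UMI counts for each gene in each cell, not normalized beyond that downsampling, which evens out reads per cell between the mice. The number that ends each barcode was taken as the mouse. All 2552 cells were kept, including 25 that scrublet called as doublets.

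Cells were clustered by K-means (K = 9, 10 principal components, 10 restarts, seed 42) on 27758 genes and repeats, leaving out the members and the pathway list. A marker counted as raised at 1.5 times its CPM over the whole dataset, and a cluster was named after the class with the largest share of its markers raised, if at least 3 were. The exception is the Ssxb1-led cluster, where that class was immune at a few CPM. The Hemgn-led cluster also had 4 of 8 immune markers raised, at a sum of 21.4 CPM. The round spermatid-like and Prm1-led clusters each had 3 of 8 raised. Some named clusters had 3 or more markers of another class raised as well. UMIs were summed per mouse and germ cell group and tested with edgeR's quasi-likelihood test (TMM, filterByExpr, 1 fit over 6 groups, Benjamini-Hochberg over 13853 genes, adjusted p under 0.05). Order of levels follows CPM, tests follow TMM. A fold change is against the mean of the other groups. With 2 mice per group no exact permutation test between a pair of groups can pass, and the mice were not tested against each other.

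Same-numbered sums are from 1 animal, and their deviations correlated with a median of 0.0991 (0.0243 to 0.226) over the 15 pairs of groups, so a block for the mouse was an alternative. On data simulated for the early spermatocyte-like comparison, edgeR recovered 185 of 200 genes changed among 12210, with 11 false calls. DESeq2 recovered 178, with 3 false calls. The changed genes were drawn from those with at least 200 UMIs, and their median absolute log2 fold change in edgeR was 2.005. Mettl3 and Mettl14 had fewer UMIs, so this recovery does not cover them. In the testis data 97.4% of all genes tested differed over the groups. Recovery and false calls with that many changed genes were not tested. A count of 0 allows up to 3 counts of the total. Named pathway genes were the 3 with the most UMIs and the 3 with the widest range over groups. Zc3h13, Cbll1 and Ythdf1 fall outside this rule and were picked as examples. The genes most like each member had the highest Pearson correlation of log2(CPM + 10), and the 1st of 3 is printed. Members, lists and markers were chosen with earlier results of these data known. The restriction to bins 1 to 11 was made after the bins had been seen. Positions are those of GENCODE on GRCm38, matched by identifier, and promoter stretches are from RefSeq, where 7 members had an entry. The authors' own clusters and reads were not used here.

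Tools were Python 3.11.15, scikit-learn 1.9.0, numpy 2.4.6, scanpy 1.11.5, pandas 2.3.3, scipy 1.17.1, matplotlib 3.10.9, R 4.3.3, edgeR 4.0.16 and DESeq2 1.42.0. Alternatives were library totals, UMIs per cell, DESeq2, no filter on low counts, the block, K = 10, repeats left out of the clustering, its 2000 most variable genes, doublets left out, thinning to 5000 UMIs and each mouse alone.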

Additional observations from a re-analysis of the deposited data

How the results depend on the processing

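Of 39 called differences between a group and the mean of the others over the 9 genes, 38 kept their direction under every alternative. For 25 the call also held in every fit with a test, and the fold change with each mouse alone stayed within the SD between the mice. That SD was taken from the same 2 single-mouse values, so this last condition can hardly fail and says little about agreement between the mice. With UMIs per cell the count of m6A genes higher in later spermatocyte-like cells became 8 (from 5), lower in Ssxb1-led cells 1 (from 2) and higher in the Prm1-led group 0 (from 1), where Fto reversed to -0.65. Of all 13853 genes, 8627 (from 5902) were then higher in later spermatocyte-like cells, at a median log2 of 1.37 (from 0.16). In Ssxb1-led cells 2162 (from 3106) were lower. The other pathway genes lower in the later spermatocyte-like group became 1 (from 3) and those higher in the Prm1-led group 1 (from 2), and over all genes 2855 (from 4513) were lower in the former and 1797 (from 4280) higher and 9613 (from 4173) lower in the latter. With library totals, m6A genes lower in Ssxb1-led cells and higher in the Prm1-led group became 0, pathway genes 2 (from 4) and 1, and all genes 1994 (from 3106) lower in Ssxb1-led cells, 5598 (from 3658) lower in the Hemgn-led group and 2626 higher and 7823 lower in the Prm1-led group. Without a filter, m6A genes lower became 1 in Ssxb1-led and 2 (from 4) in round spermatid-like cells, and 1 pathway gene was higher in the Prm1-led group. Of the 27014 genes then tested, 2268 were lower in Ssxb1-led and 2251 in round spermatid-like cells, and 4514 were higher in the Prm1-led group. DESeq2 left 2 m6A genes (from 6) lower in the Prm1-led group, and 2994 (from 4173) of all genes. With the 2000 most variable genes in the clustering, 1 pathway gene was lower in the early and 1 higher in the Prm1-led group. Of all 14520 genes then tested, 5689 were lower in the early and 4426 higher in the Prm1-led group. The cause of these changes was not tested. After thinning, the share of cells with a UMI of Meioc was 66.9% (from 97.5%) in early spermatocyte-like and 3.47% (from 6.12%) in Prm1-led cells, and that of Fto 8.59% (from 29.4%) and 40.8% (from 82.9%) in early spermatocyte-like and Hemgn-led cells. The replicate block, which pairs sums of the same mouse, ended 1 call, Alkbh5 in the Prm1-led group (log2 -1.32). The count of neighbouring steps that passed, 18 of 45, lay between 14 and 26 under the alternatives with a test, but the steps differed. Of the 18, 10 kept direction and call under each alternative, 7 kept the direction only, and 1, Fto from Prm1-led to Ssxb1-led cells, turned to -0.31 with UMIs per cell. Of the 27 others, 10 passed with library totals and 10 with UMIs per cell, where Ythdc1 was also called the other way between Ssxb1-led and later spermatocyte-like cells (log2 -0.69), and DESeq2 called Fto the other way between round spermatid-like and Prm1-led cells (log2 -0.54). Leaving out 1 mouse gives values with no test, since no residual degrees of freedom remain. Few UMIs of Mettl3, Mettl14, Wtap and Alkbh5 were counted in spermatids, and under TMM no neighbouring step between spermatid groups passed for them. Alkbh5 from round spermatid-like to Prm1-led cells passed with library totals (log2 1.97, adjusted p = 0.00484) and with UMIs per cell (log2 2.78, adjusted p = 0.000119). Mettl3 from Hemgn-led to Prm1-led cells also passed with library totals (log2 2.95, adjusted p = 0.0410) and with UMIs per cell (log2 3.68, adjusted p = 0.00524). Away from neighbours, Alkbh5 was higher in round spermatid-like than in Hemgn-led cells (log2 2.41, adjusted p = 0.0119; DESeq2 0.0584) and Mettl3 than in Prm1-led cells (log2 2.83, adjusted p = 0.0221; DESeq2 0.121).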

Other observations

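The small classes hold too few UMIs for a comparison, and their counts are given as values. The 7 spermatogonium-like cells, with 10 of 12 spermatogonium markers raised, held 74742 UMIs in all. Among them were 7 UMIs each of Ythdc1 and Meioc, 6 of Ythdf2, 5 of Wtap, 4 of Ythdc2, 3 each of Mettl3 and Alkbh5, 2 of Fto and 1 of Mettl14. Fto thus stood at 26.8 CPM (3.24 to 96.7) and Meioc at 93.7 CPM (37.7 to 193), with intervals that cover counting error only.

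The 7 Sertoli-like cells held 84783 UMIs, with 7 UMIs of Meioc, all in 1 cell of mouse 1, 6 of Ythdf2, 4 of Wtap, 3 of Mettl3, 2 each of Mettl14, Ythdc1, Ythdc2 and Alkbh5, and 1 of Fto. In the 5 Leydig-like cells 1 UMI each of Wtap and Ythdf2 was found, and the other 7 genes had none, which allows up to 59.2 CPM.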
